A study of Mus musculus with 4 samples.

Results

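This report describes 10 marker genes of white blood cells, 10 of the 54393 gene identifiers counted, in mammary cells from which leukocytes had been sorted out. The members were taken by name as lymphoid and myeloid markers, and each symbol matched 1 identifier in GENCODE M21 (GRCm38). They are Ptprc for all leukocytes, Cd3e for T cells, Cd79a, Igkc and Ighm for B lineage cells, and Lyz2, Adgre1, C1qa, Csf1r and Cd68 for macrophages and related myeloid cells. Messenger RNA was counted in 4 libraries. The cKO libraries, n = 2, came from glands with a conditional knockout of ΔNp63, the N-terminally truncated p63 of basal epithelial cells. The WT libraries, n = 2, came from wild-type glands. One of each pair was collected 10 days and the other 5 weeks after tamoxifen (1.5 mg/ml). Tamoxifen was given when animals were 4 weeks old and is listed for all 4 libraries. The Cre is an inducible keratin 14 line (iK14-Cre; DNp63 f/f), and the keratin 14 promoter is known for its activity in basal epithelial cells. Recombination was not measured here in any cell type. The labels do not say which of these alleles the WT animals carried or how many animals gave a library. They also do not say whether the 2 libraries of a genotype came from separate animals. They also give gland ages of 5 and 35 weeks, which were not used because 35 weeks cannot be reached from these times. Single cells were stained for CD45 (leukocytes), CD31 (endothelium) and Ter119 (red cells), stained cells were discarded, and 100000 of the others were used.

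CD45, the protein product of Ptprc, is a tyrosine phosphatase on the surface of nearly all blood cells except mature red cells, and it is the antigen by which leukocytes were removed here. T cells signal through a receptor held together by the CD3 chains, and B cells through membrane immunoglobulin held by CD79A and CD79B. Plasma cells, the secreting stage of the B lineage, make large amounts of immunoglobulin mRNA and carry less CD45. The mammary gland holds resident macrophages beside its ducts, which depend on the receptor CSF1R, as well as T and B lymphocytes in its stroma and in the lymph node of the inguinal fat pad. In bulk libraries fewer cells of a type and less RNA per cell cannot be told apart.

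Total counts were 31714181 for cKO and 33363255 for WT at 10 days, and 34230566 for cKO and 79122250 for WT at 5 weeks. Values are given as CPM, which are counts divided by library size and brought to a common scale, with sizes adjusted by TMM, a trimmed mean of gene ratios. Trp63 transcripts, the check of the genotype labels, stood at 12.8 CPM in cKO and 46.8 CPM in WT at 10 days, and at 25.5 CPM in cKO and 160.5 CPM in WT at 5 weeks, lower in cKO at both times. WT at 5 weeks stood apart from the other libraries in depth and in its basal keratin, with Krt5 at 235.8 CPM in cKO and 7826 CPM in WT at that time. The summed level of 10 fibroblast genes lay between 22900 and 50810 CPM and that of 12 luminal genes between 7890 and 9695 CPM, while the 10 leukocyte markers together made up 140.8 CPM in cKO and 83.2 CPM in WT at 10 days, and 168.5 CPM in cKO and 71.1 CPM in WT at 5 weeks. Each of the 10 markers had counts in every library.

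The genotype comparison asked which transcripts differ between cKO and WT with time point held constant, and it called none of the 10 leukocyte markers. All 10 passed the filter on low counts. In edgeR's quasi-likelihood test 0 of 10 passed an adjusted p of 0.05, in a fit where 0.0581% of the 18917 genes tested did. An unadjusted p under 0.05, with a higher level in cKO, was reached by 4 of 10 markers (Ptprc, Cd79a, Igkc and Lyz2), where 5.8% of all genes tested reached it in that direction. Both cKO libraries lay above both WT libraries for 7 of 10, where 22.6% of all genes tested did, and below them for 0 of 10. The exceptions were Cd3e, Ighm and Cd68. Below both WT libraries lay 23.3% of all genes. The ratio of cKO over WT was above 1 at both time points for 9 of 10 markers, all but Cd68, where 29.7% of all genes tested were, and the fitted fold change was above 0 for the same 9, where 49.4% were. The median fitted log2 fold change of the 10 was 0.95, beside a median of -0.01 for all genes tested. DESeq2, an alternative that called 2.71% of genes (1.25% higher in cKO), called Ptprc, Igkc and Lyz2 among the 10, and so did edgeR with no filter on low counts, which called 3.71% of the 33332 genes it then tested, while limma-voom called 0 of 10. WT at 5 weeks had the lowest level of Ptprc, Cd79a, Lyz2, Adgre1, C1qa, Csf1r and Cd68, and the share of all genes lowest there was not counted. The part of that library's depth and composition in these differences was not tested.

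**Figure D1:**
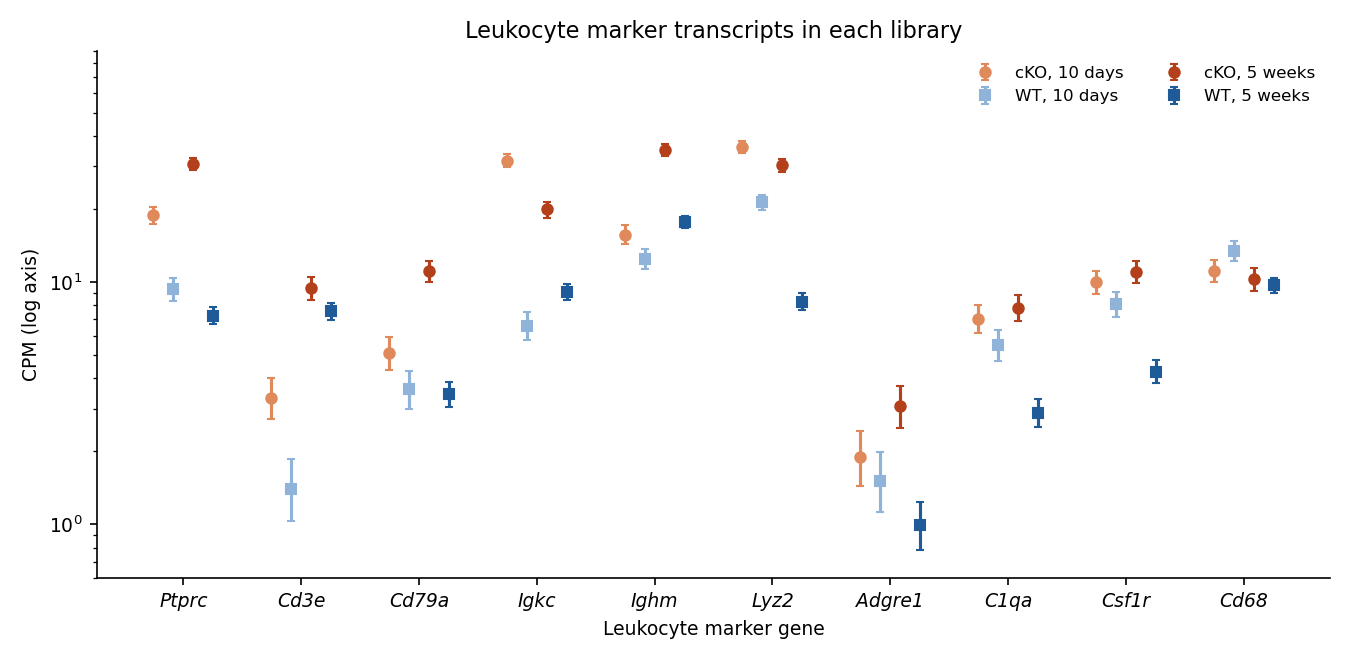
CPM of the 10 leukocyte marker genes in each library, on a log axis. Circles are cKO and squares WT libraries, pale at 10 days and dark at 5 weeks, and bars are exact Poisson 95% intervals that cover counting error only. Ptprc lies at 18.9 and 30.7 CPM in cKO against 9.32 and 7.26 CPM in WT, whereas Cd68 lies between 9.68 and 13.4 CPM in all 4 libraries.

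Promoter sequences of 5 of the 10 genes were found in the RefSeq table of build GRCm38.p6, which covers 250 bases before to 50 bases after each annotated start. They are printed to set 3 genes with both cKO libraries above both WT libraries (Ptprc, Cd79a and Lyz2) beside 2 without that order (Cd3e and Cd68). Capitals mark each match to GGAAGT or its reverse complement ACTTCC, searched on both strands as the only motif. This is the core to which transcription factors of the ETS family bind, among them PU.1, the product of Spi1 in myeloid and B cells. The motif was chosen after the sequences had been read, so its presence in them is no test. For Ptprc, which has 2 annotated starts in that table, the window shown is chr1:138175256-138175555 on the minus strand. The others are chr7:24897247-24897546 on the plus strand for Cd79a, chr9:45009562-45009861 on the minus strand for Cd3e, chr10:117282223-117282522 on the minus strand for Lyz2, and chr11:69666121-69666420 on the minus strand for Cd68.
Ptprc: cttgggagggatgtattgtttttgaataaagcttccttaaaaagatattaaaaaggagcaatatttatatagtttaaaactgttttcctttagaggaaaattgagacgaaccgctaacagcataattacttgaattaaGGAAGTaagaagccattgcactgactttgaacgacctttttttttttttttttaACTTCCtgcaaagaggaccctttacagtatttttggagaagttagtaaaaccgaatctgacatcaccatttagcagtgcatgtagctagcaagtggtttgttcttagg
Cd79a: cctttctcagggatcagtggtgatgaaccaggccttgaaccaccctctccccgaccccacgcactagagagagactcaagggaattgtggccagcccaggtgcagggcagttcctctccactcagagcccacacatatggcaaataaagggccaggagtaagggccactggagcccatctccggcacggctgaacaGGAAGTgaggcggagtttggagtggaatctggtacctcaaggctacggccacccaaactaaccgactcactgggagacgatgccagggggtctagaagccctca
Cd3e: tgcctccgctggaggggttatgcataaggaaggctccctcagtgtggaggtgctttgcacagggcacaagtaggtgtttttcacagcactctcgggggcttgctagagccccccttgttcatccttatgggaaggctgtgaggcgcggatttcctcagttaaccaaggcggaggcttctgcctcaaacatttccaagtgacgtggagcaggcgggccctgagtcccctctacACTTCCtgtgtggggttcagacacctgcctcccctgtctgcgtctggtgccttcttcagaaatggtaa
Lyz2: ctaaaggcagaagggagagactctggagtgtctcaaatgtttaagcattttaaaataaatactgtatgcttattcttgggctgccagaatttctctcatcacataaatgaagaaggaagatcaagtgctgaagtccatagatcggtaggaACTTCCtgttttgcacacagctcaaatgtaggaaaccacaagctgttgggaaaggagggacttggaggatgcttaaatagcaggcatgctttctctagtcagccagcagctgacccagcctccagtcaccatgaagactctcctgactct
Cd68: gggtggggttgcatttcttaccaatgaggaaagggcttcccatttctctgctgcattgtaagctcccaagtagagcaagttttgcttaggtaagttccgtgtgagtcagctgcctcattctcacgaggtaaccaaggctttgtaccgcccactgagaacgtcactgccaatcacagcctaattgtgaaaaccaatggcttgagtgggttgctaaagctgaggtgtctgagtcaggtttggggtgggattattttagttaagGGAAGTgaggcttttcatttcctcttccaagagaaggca
The motif stands in the promoter of each of the 5 genes, with and without that order of libraries, and 23.8% of the 32851 promoter sequences of the same length in the table hold it. The second Ptprc window overlaps the first and is not a separate case. A match is a description of the sequence and not a bound site. Transcripts of Spi1 itself were scarce, at 1.42 CPM in cKO and 0.61 CPM in WT at 10 days, and at 1.18 CPM in cKO and 0.43 CPM in WT at 5 weeks.

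Ptprc (ENSMUSG00000026395.16, chromosome 1, 138062861 to 138175708, minus strand) encodes the sorted antigen CD45 itself. It stood at 18.9 CPM in cKO and 9.32 CPM in WT at 10 days, from 599 and 321 counts. At 5 weeks it stood at 30.7 CPM in cKO and 7.26 CPM in WT, from 1042 and 558 counts. The order of the 4 libraries was cKO at 5 weeks, cKO at 10 days, WT at 10 days and WT at 5 weeks, and neighbours in that order had counting intervals that did not overlap, with 1 library per condition and hence no spread between replicates. The level in cKO was 2.02 times that in WT at 10 days and 4.23 times at 5 weeks. The fitted log2 fold change, from 2 cKO and 2 WT libraries, was 1.55 with an SE of 0.34, with an unadjusted p of 0.00501 and an adjusted p of 0.255 in edgeR's quasi-likelihood test, which missed the threshold. Over 12 alternatives the log2 fold change lay between 1.16 and 1.87 and the adjusted p between 9.34e-05 and 0.767.

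Cd3e (ENSMUSG00000032093.7, chromosome 9, 44998740 to 45009627, minus strand) encodes the epsilon chain of CD3, which the T cell receptor needs to reach the surface. It stood at 3.31 CPM in cKO and 1.39 CPM in WT at 10 days, and at 9.43 CPM in cKO and 7.55 CPM in WT at 5 weeks. The groups overlapped, since WT at 5 weeks lay above cKO at 10 days. The log2 fold change was 0.76 (SE 0.39, adjusted p = 0.524 in edgeR), and it changed sign without WT at 10 days (-0.24) and without cKO at 5 weeks (-0.46), in fits with no time term.

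The other CD3 genes, which a T cell expresses together with Cd3e, gave another order of libraries. Cd3d, the delta chain gene, stood at 1.83 CPM in cKO and 0.84 CPM in WT at 10 days, and at 1.77 CPM in cKO and 0.47 CPM in WT at 5 weeks. Cd3g, the gamma chain gene, stood at 2.14 and 1.02 CPM in cKO and WT at 10 days, and at 2.21 and 0.40 CPM in cKO and WT at 5 weeks. Cd247, the zeta chain gene, was close to them, at 2.11 and 1.13 CPM in cKO and WT at 10 days and 2.21 and 0.85 CPM at 5 weeks. These 3 genes were lowest in WT at 5 weeks, the library in which Cd3e was second highest. There were 1.81 counts of Cd3e for each count of Cd3d in cKO and 1.66 in WT at 10 days, but 5.33 in cKO and 16.1 in WT at 5 weeks. By contrast, Cd3g held between 0.86 and 1.25 counts for each count of Cd3d in all 4 libraries. The level of Cd3e at 5 weeks therefore did not track its partner chains. An antisense gene (Gm48719) overlaps Cd3e and was at 0 counts in every library, and an unclassified transcript on the same strand (Gm48720) held 1, 0, 12 and 24 counts in cKO at 10 days, WT at 10 days, cKO at 5 weeks and WT at 5 weeks. No source used here says if strand was read when counting, so reads of either strand over Cd3e cannot be separated.

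**Figure D2:**
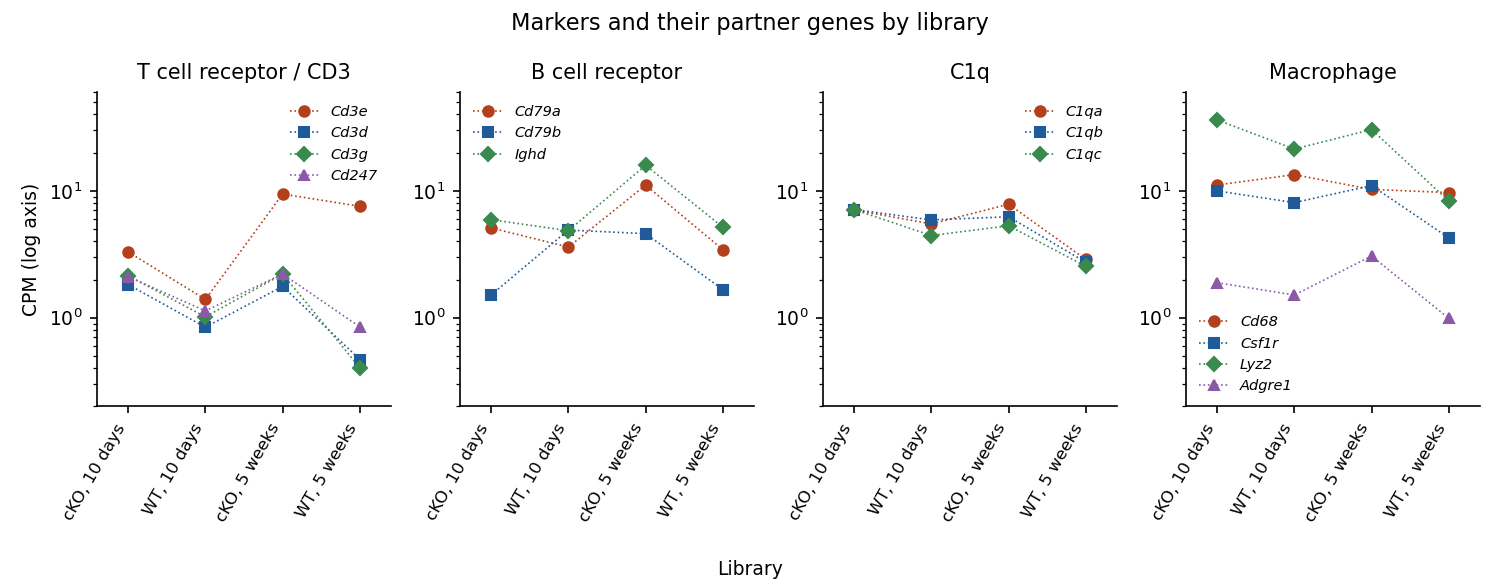
CPM, on a log axis, of markers and of genes that act with them, in 4 panels over the same 4 libraries, where dotted lines only join the points of a gene. Cd3e lies apart from Cd3d, Cd3g and Cd247 at 5 weeks, at 7.55 CPM against 0.47, 0.40 and 0.85 CPM in WT, while the 3 C1q genes stay together.

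Cd79a (ENSMUSG00000003379.7, chromosome 7, 24897381 to 24902197, plus strand) encodes a signalling chain of the B cell receptor. It stood at 5.10 CPM in cKO and 3.60 CPM in WT at 10 days, and at 11.1 CPM in cKO and 3.44 CPM in WT at 5 weeks. Both cKO libraries lay above both WT libraries, which differed little from each other. The log2 fold change was 1.11 (SE 0.42, unadjusted p = 0.0424, adjusted p = 0.414 in edgeR). It was 0.51 without cKO at 5 weeks and 1.64 without cKO at 10 days. Cd79b, the gene of its partner chain, had another order of libraries, at 1.51 CPM in cKO and 4.91 CPM in WT at 10 days, and 4.60 CPM in cKO and 1.67 CPM in WT at 5 weeks. The log2 ratio of Cd79b, cKO over WT, was thus -1.67 at the early time and 1.44 at the late one.

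Igkc (ENSMUSG00000076609.2, chromosome 6, 70726435 to 70726966, plus strand) is the constant segment of the kappa light chain. It stood at 31.7 CPM in cKO and 6.59 CPM in WT at 10 days, from 1007 and 227 counts, and at 19.9 CPM in cKO and 9.07 CPM in WT at 5 weeks. Both cKO libraries were above both WT libraries, and cKO at 10 days was the highest. Its log2 fold change, 1.69 (SE 0.35), was the largest of the 10, with an unadjusted p of 0.004 and an adjusted p of 0.237 in edgeR. Over 12 alternatives it lay between 1.33 and 2.00.

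Ighm (ENSMUSG00000076617.9, chromosome 12, 113418558 to 113422730, minus strand) is the constant region gene of IgM, the first heavy chain a B cell makes. It stood at 15.7 CPM in cKO and 12.5 CPM in WT at 10 days, and at 34.9 CPM in cKO and 17.7 CPM in WT at 5 weeks. The groups overlapped, because WT at 5 weeks lay above cKO at 10 days. The log2 fold change was 0.66 (SE 0.27, unadjusted p = 0.0523, adjusted p = 0.435 in edgeR) and was 0.04 without cKO at 5 weeks. Ighd, the IgD gene of naive B cells, held between 0.29 and 0.45 counts per count of Ighm in the 4 libraries.

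Igkc and Ighm had different orders of libraries, and the class-switched heavy chain genes separated the libraries further. There were 2.02 counts of Igkc per count of Ighm in cKO at 10 days, against 0.53 in WT at that time, and 0.57 in cKO and 0.51 in WT at 5 weeks. In cKO at 10 days the 4 IgG genes held 62.6% of the 2304 heavy-chain constant counts, whereas in WT at 10 days they held 18.1% of 819. At 5 weeks they held 14.4% of 2212 in cKO and 18.5% of 2158 in WT. Ighg1 stood at 19.8 CPM in cKO and 0.23 CPM in WT at 10 days (630 and 8 counts), and at 4.42 CPM in cKO and 3.53 CPM in WT at 5 weeks. Igha, the IgA gene, stood at 5.38 and 2.15 CPM in cKO and WT at 10 days, but at 5.01 and 0.05 CPM in cKO and WT at 5 weeks, the last from 4 counts. Jchain, which encodes the joining chain of secreted IgA and IgM, stood at 3.02 and 1.05 CPM in cKO and WT at 10 days and at 2.06 and 1.37 CPM at 5 weeks. Reads of near-identical constant genes are divided by a model in Salmon, so the split among IgG genes is uncertain. Variable segments of immunoglobulin genes, summed over 218 annotated genes, gave 30.9 CPM in cKO and 5.86 CPM in WT at 10 days, and 19.7 CPM in cKO and 9.95 CPM in WT at 5 weeks, the same order of libraries as Igkc. They came from 97 genes with at least 1 count in cKO and 70 in WT at 10 days, and from 130 in cKO and 85 in WT at 5 weeks. These numbers depend on the counts behind them, which were 983 in cKO and 202 in WT at 10 days. At 5 weeks the counts were 670 in cKO and 765 in WT.

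**Figure D3:**
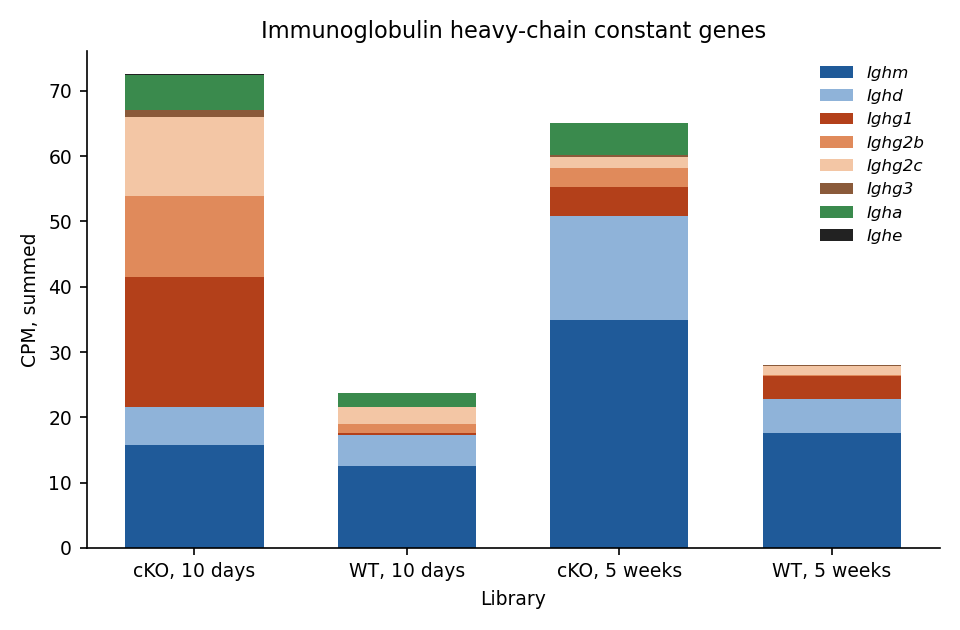
Summed CPM of the immunoglobulin heavy-chain constant genes in each library, stacked by gene. The cKO library at 10 days holds 72.5 CPM in all, most of it from IgG genes, whereas Ighm and Ighd make up most of the 65.2 CPM in cKO at 5 weeks and of the 23.8 and 28.1 CPM in WT at 10 days and 5 weeks.

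Lyz2 (ENSMUSG00000069516.8, chromosome 10, 117277331 to 117282321, minus strand) encodes the lysozyme of macrophages and granulocytes. It stood at 36.2 CPM in cKO and 21.3 CPM in WT at 10 days, and at 30.4 CPM in cKO and 8.29 CPM in WT at 5 weeks. Both cKO libraries lay above both WT libraries, and WT at 5 weeks was well below the others. The log2 fold change was 1.32 (SE 0.34, unadjusted p = 0.0101, adjusted p = 0.301 in edgeR), and its lowest value, 0.64, came without the late WT library and its highest, 2.00, without the early one. The neighbouring gene Lyz1 is a close copy, so reads can be shared between them.

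Csf1r (ENSMUSG00000024621.16, chromosome 18, 61100598 to 61132149, plus strand) encodes the receptor for CSF1 and IL-34, on which macrophages depend. It stood at 9.98 CPM in cKO and 8.07 CPM in WT at 10 days, and at 10.99 CPM in cKO and 4.26 CPM in WT at 5 weeks. Both cKO libraries lay above both WT libraries, at 10 days by 1.24 times and later by 2.58 times. Its log2 fold change was 0.84 with an SE of 0.38 (adjusted p = 0.471 in edgeR), with 0.38 once the late WT library was left out and 1.30 once the early one was. Csf1r overlaps Hmgxb3 on the other strand, which had more counts than Csf1r in every library (between 1487 and 4398), so its counts are uncertain without strand. The ligand gene Csf1, which stromal and epithelial cells express, had the higher level per length, 90.7 CPM per kilobase against 2.12 for the receptor gene in cKO at 10 days. It stood at 378.7 and 231.0 CPM in cKO and WT at 10 days and 235.2 and 169.5 CPM at 5 weeks, and its log2 fold change was 0.59 with an SE of 0.23 (adjusted p = 0.417 in edgeR). The other ligand gene, Il34, stood at 9.48 and 18.3 CPM in cKO and WT at 10 days and at 17.2 and 14.1 CPM at 5 weeks, with no common order.

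C1qa (ENSMUSG00000036887.5, chromosome 4, 136895917 to 136898803, minus strand) encodes a chain of complement C1q, which tissue macrophages secrete. It stood at 7.05 CPM in cKO and 5.49 CPM in WT at 10 days, and at 7.84 CPM in cKO and 2.88 CPM in WT at 5 weeks. Its log2 fold change was 0.91 with an SE of 0.41 (adjusted p = 0.469 in edgeR). Leaving out WT at 5 weeks gave 0.44, and leaving out WT at 10 days gave 1.37. Both cKO libraries lay above both WT libraries, with overlapping counting intervals at 10 days. The genes of the other chains kept close to it. C1qb stood at 7.11 and 5.89 CPM in cKO and WT at 10 days and at 6.25 and 2.73 CPM at 5 weeks, and C1qc at 7.11 and 4.44 CPM and at 5.30 and 2.54 CPM. Each count of C1qb went with between 0.93 and 1.26 counts of C1qa.

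Adgre1 (ENSMUSG00000004730.15, chromosome 17, 57358691 to 57483527, plus strand) encodes F4/80, the adhesion receptor used to identify mouse macrophages. It had the fewest counts of the 10 summed over the libraries, with between 52 and 104 counts per library. It stood at 1.89 CPM in cKO and 1.51 CPM in WT at 10 days, and at 3.06 CPM in cKO and 0.99 CPM in WT at 5 weeks. Its log2 fold change was 0.99 with an SE of 0.51 (adjusted p = 0.523 in edgeR), and 0.58 without cKO at 5 weeks. Both cKO libraries lay above both WT libraries, and the counting intervals overlapped at 10 days.

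Cd68 (ENSMUSG00000018774.13, chromosome 11, 69664213 to 69666153, minus strand) encodes a lysosomal glycoprotein abundant in macrophages but also found in other cells. It stood at 11.1 CPM in cKO and 13.4 CPM in WT at 10 days, and at 10.3 CPM in cKO and 9.68 CPM in WT at 5 weeks. The groups overlapped and the log2 fold change was -0.09 (SE 0.28, adjusted p = 0.929 in edgeR), between -0.33 and 0.14 over 12 alternatives. It was the only member with a fold change below 0. There were 1.11 counts of Cd68 per count of Csf1r in cKO and 1.66 in WT at 10 days, and 0.93 in cKO and 2.28 in WT at 5 weeks, so its level did not follow that of the macrophage receptor gene.

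Levels of different members were compared per length, as CPM per kilobase of the principal transcript. In cKO at 10 days Igkc had the highest level at 59.6, followed by Lyz2 at 27.5, Ighm at 9.23 and Cd68 at 9.03, and Adgre1 had the lowest at 0.58. In WT at 10 days Lyz2 led at 16.2, before Igkc at 12.4 and Cd68 at 10.9, with Adgre1 again lowest at 0.47. At 5 weeks Igkc was highest in cKO (37.4) and in WT (17.1), and Adgre1 lowest (0.95 in cKO and 0.31 in WT). Ptprc stood at 3.29 and 1.62 CPM per kilobase in cKO and WT at 10 days, and at 5.35 and 1.27 at 5 weeks.

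The 2 time points gave log2 ratios of cKO over WT of different size. The log2 ratio was above 1 for 3 of 10 markers at 10 days (Ptprc, Cd3e and Igkc) and for 7 of 10 at 5 weeks (Ptprc, Cd79a, Igkc, Lyz2, Adgre1, C1qa and Csf1r), where 7.89% and 7.78% of all genes tested had a log2 ratio above 1. For 8 of 10 the ratio was larger at 5 weeks, where 46.4% of all genes tested had the larger ratio. Ptprc had log2 ratios of 1.01 at 10 days and 2.07 at 5 weeks, and C1qa of 0.36 and 1.43. Igkc went the other way, with 2.26 at 10 days and 1.13 at 5 weeks, and so did Cd3e, with 1.22 and 0.32. With 1 library per genotype and time point these ratios have no test, and a difference between them cannot be told apart from a difference between single libraries.

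**Figure D4:**
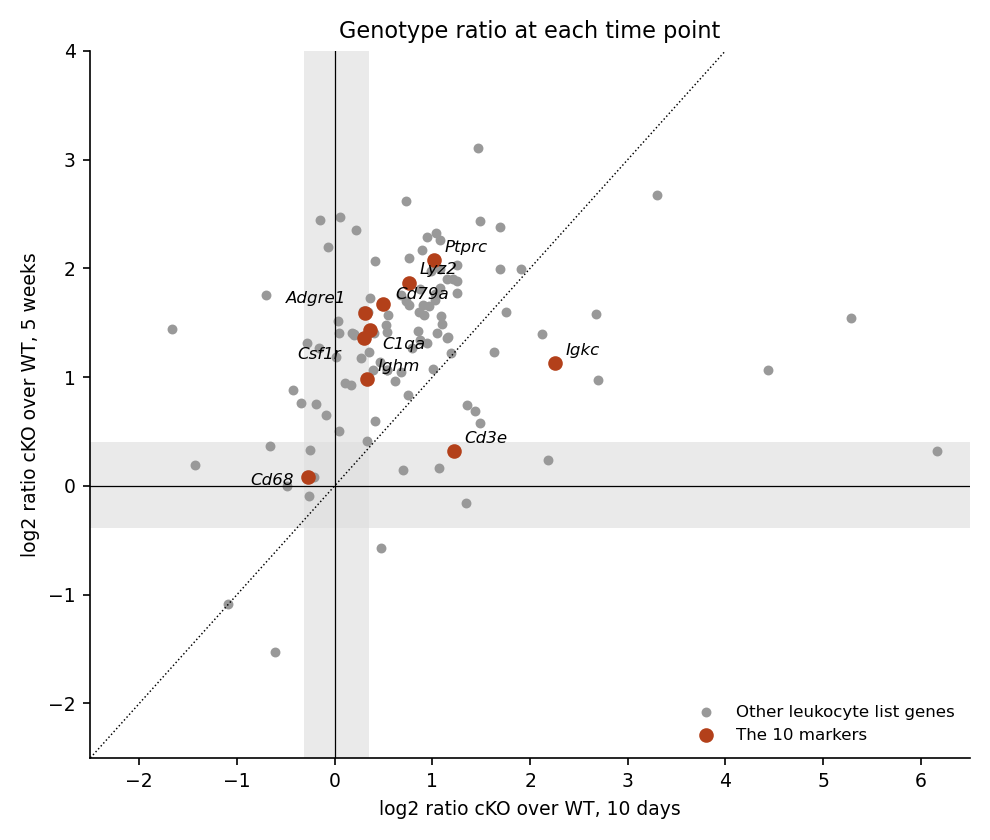
Log2 ratio of cKO over WT at 10 days (horizontal) and at 5 weeks (vertical) for the 10 leukocyte markers, in red, and for the other tested genes of 7 leukocyte lists, in grey. Grey bands span the quartiles of all genes tested and the dotted line marks equal ratios; 8 of the 10 markers lie above that line, and Igkc and Cd3e lie below it.

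The time comparison, 5 weeks against 10 days with genotype held constant, called 0 of the 10 markers in edgeR, where 0.0634% of all genes tested were called. An unadjusted p under 0.05 was reached by Cd3e and Ighm, 2 of 10, both higher at 5 weeks, where 3.09% of all genes tested reached it in that direction. Cd3e stood at 9.43 and 7.55 CPM in cKO and WT at 5 weeks, against 3.31 and 1.39 CPM at 10 days. Both libraries at 5 weeks thus lay above both at 10 days, an order whose share over all genes was not counted. Its log2 fold change over time was 1.96 (SE 0.40, unadjusted p = 0.00333, adjusted p = 0.385 in edgeR). Its partner genes Cd3d, Cd3g and Cd247 had values over time of -0.43, -0.61 and -0.17 (SE 0.48, 0.54 and 0.44). The 23 tested T and NK genes had a median over time of -0.52. DESeq2, which called 1.01% of genes for time (0.571% higher at 5 weeks), called Cd3e alone of the 10 (adjusted p = 0.0161). So did edgeR with no filter (adjusted p = 0.000348), which called 1.91% of genes. For Ighm the log2 fold change over time was 0.83 (SE 0.27, adjusted p = 0.772), and for Lyz2 it was -0.80 (SE 0.33, adjusted p = 0.947), both in edgeR.

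Other genes of the same cell types were read from 7 lists that cover leukocytes in general, T and NK cells, B and plasma cells, macrophages, monocytes and neutrophils, dendritic cells with MHC class II, and mast cells and eosinophils. They hold 137 different genes, of which 118 passed the filter, and 0 of these passed an adjusted p of 0.05 for genotype in edgeR. An unadjusted p under 0.05 was reached by 57, of which 56 were higher in cKO, where 5.8% of all genes tested reached it in that direction. Outside the 10 markers DESeq2 called 10 of 108 genes, where it called 1.25% of all genes higher in cKO. All 10 were higher in cKO, among them Cd163, Ighg2b, Mpeg1, Mrc1 and Timd4. Of the same genes limma-voom called 0, and edgeR with no filter called 32 of 125, all higher in cKO, where it called 3.71% of all genes in either direction. Without the 10 markers 108 genes passed the filter, with a median log2 fold change of 1.14 (0.75 at 10 days and 1.41 at 5 weeks). A gene that is scarce in WT could pass the filter through cKO alone, so these counts describe the genes tested.

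All 21 genes of the list for leukocytes in general were tested, and some of them, such as Spi1, belong to only part of the leukocytes. They had a median log2 fold change of 1.14, and 20 had both cKO libraries above both WT libraries, where 22.6% of all genes tested did. Laptm5, a lysosomal membrane protein gene of blood cells, stood at 20.3 and 11.2 CPM in cKO and WT at 10 days and at 23.2 and 8.61 CPM at 5 weeks. The exception was Cytip, a scaffold protein gene, at 46.6 and 73.9 CPM in cKO and WT at 10 days and at 47.5 and 36.7 CPM at 5 weeks. Lcp1, the gene of the actin-bundling plastin of leukocytes, had a log2 fold change of 0.27.

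In the T and NK list 23 of 25 genes were tested, with a median log2 fold change of 1.32. The coreceptor gene Cd4 had a log2 fold change of 1.32 and Cd8a of 1.56. Lck and Trbc2, which were among the most abundant genes of the list, had lower values of 0.73 and 0.37. Of the 23 genes, 22 were above 0, where 49.4% of all genes tested were. The exception was Bcl11b, a transcription factor gene also expressed in skin epithelium, at 2.83 and 4.36 CPM in cKO and WT at 10 days and at 3.71 and 10.8 CPM at 5 weeks. In the B and plasma list 25 of 28 were tested, with a median of 1.25, and Ighg2b had the largest value (3.92, SE 0.58, adjusted p = 0.161 in edgeR). In the macrophage list 22 of 24 were tested, with a median of 0.88. Within it Timd4, a phosphatidylserine receptor gene of resident macrophages, had 2.16 and the scavenger receptor genes Cd163 and Mrc1 had 1.99 and 1.67, whereas Mertk, a receptor gene for the uptake of dying cells, had 0.28 and Stab1, a scavenger receptor gene, had 0.04. The lowest value of the list was -0.64, and 3 of the 22, Cd68 among them, were below 0. Mpeg1, the gene of a pore-forming protein of phagocytes, had 1.31.

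Granulocyte transcripts were scarce but uneven. Of the 14 monocyte and neutrophil genes 9 were tested, with a median of 1.25. S100a9, a calcium-binding protein gene of neutrophils, stood at 7.21 CPM in cKO and 0.29 CPM in WT at 10 days, and at 2.83 CPM in cKO and 1.33 CPM in WT at 5 weeks. Ngp, a granule gene of immature neutrophils, held 126 and 2 counts in cKO and WT at 10 days and 39 and 28 counts at 5 weeks. The cKO library at 10 days, for which no share over all genes was counted, was highest for 6 of the 9 tested genes. It was not for Il1b, an inflammatory cytokine gene, at 4.34 and 5.05 CPM in cKO and WT at 10 days and at 2.09 and 1.98 CPM at 5 weeks. Ly6c2, a surface antigen gene of inflammatory monocytes, stood at 19.3 and 7.61 CPM in cKO and WT at 10 days and at 7.04 and 7.85 CPM at 5 weeks. Of the 11 mast cell and eosinophil genes 5 were tested, with a median of 2.06. The mast cell protease genes Mcpt4 and Cpa3 had log2 fold changes of 2.06 (SE 0.51, adjusted p = 0.286 in edgeR) and 2.18 (SE 0.51, adjusted p = 0.266 in edgeR). Hdc, the most abundant gene of the list, had the lowest value of those tested, 0.53 (SE 0.41, adjusted p = 0.677 in edgeR). It stood at 3.24 and 3.02 CPM in cKO and WT at 10 days and at 4.39 and 2.26 CPM at 5 weeks. Among eosinophil genes, Prg2, which encodes a granule protein, held 5 and 4 counts in cKO and WT at 10 days and 3 and 11 counts at 5 weeks. Siglecf and Epx were at 0 counts in all 4 libraries. For scale, 3 counts would stand at 0.0943 and 0.0871 CPM in cKO and WT at 10 days and at 0.0883 and 0.039 CPM at 5 weeks.

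MHC class II genes, which B cells, dendritic cells and macrophages share, had log2 ratios near 0 at 10 days. H2-Aa stood at 35.7 and 34.9 CPM in cKO and WT at 10 days and at 58.2 and 20.3 CPM at 5 weeks. Cd74, the invariant chain gene, stood at 102.7 and 124.6 CPM and at 152.0 and 61.0 CPM. The 13 tested genes of the whole list, which also holds dendritic cell genes, had a median log2 ratio of 0.04 at 10 days and 1.39 at 5 weeks. Within it the log2 ratios at 10 days ran from -0.43 for Zbtb46 to 1.25 for Flt3.

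Markers of other cells were set beside these. The endothelial list, whose cells were also to be discarded, had a median log2 fold change of 0.52 over 15 genes. All 15 were above 0, where 49.4% of all genes tested were. For 8 of the 15 both cKO libraries lay above both WT libraries, where 22.6% of all genes tested did. The summed level of the list was 414.9 CPM in cKO and 299.8 CPM in WT at 10 days. At 5 weeks it was 576.1 CPM in cKO and 390.7 CPM in WT. Pecam1, the CD31 gene, stood at 33.9 and 30.9 CPM in cKO and WT at 10 days and at 55.9 and 35.7 CPM at 5 weeks. The 10 fibroblast genes had a median of 0.45, with a median log2 ratio of 0.06 at 10 days and 0.89 at 5 weeks. Their summed level was 25540 CPM in cKO and 35670 CPM in WT at 10 days, and 50810 CPM in cKO and 22900 CPM in WT at 5 weeks, the time at which most leukocyte ratios were larger, and its part in those ratios was not tested. The 12 luminal genes had a median of 0.06. The 10 basal epithelial genes had a median of -0.66, and their summed level was 2460 CPM in cKO and 6102 CPM in WT at 10 days and 2625 CPM in cKO and 17140 CPM in WT at 5 weeks. CPM are shares of a library, and the part of this difference in basal transcripts in the leukocyte values was not tested.

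**Figure D5:**
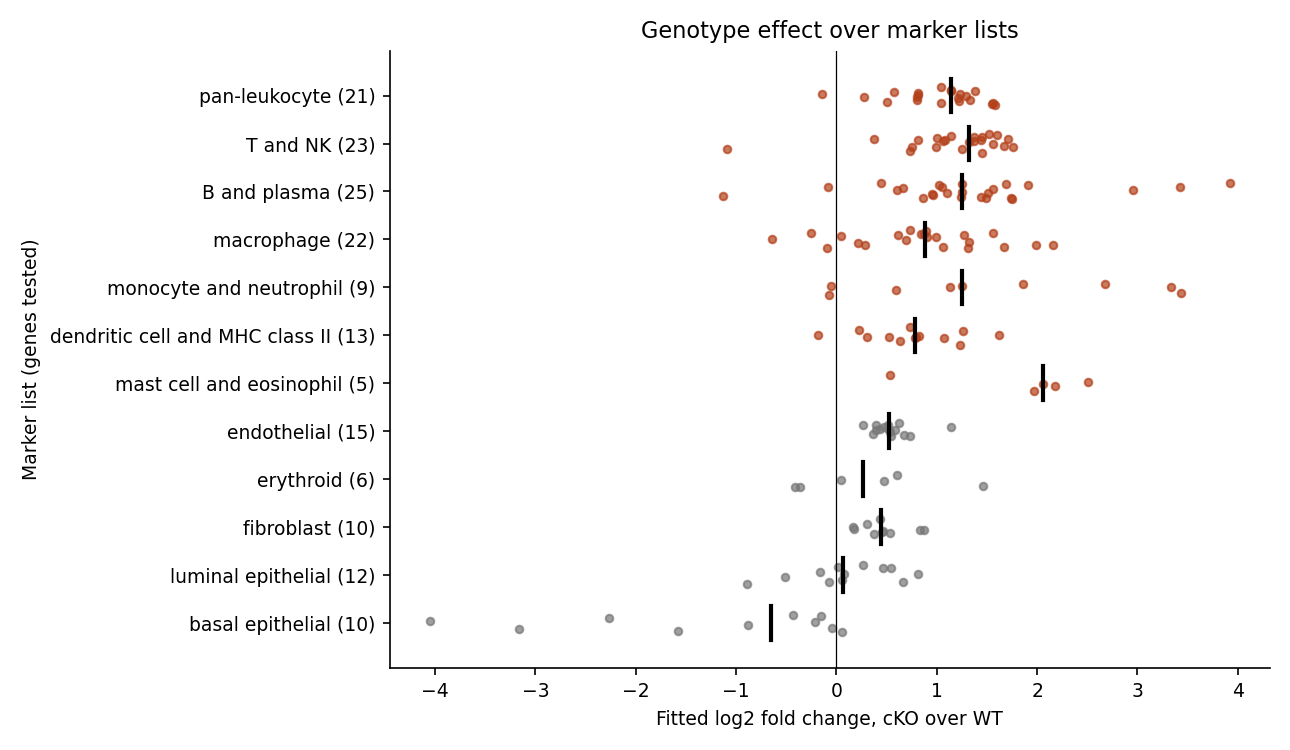
Fitted log2 fold change of cKO over WT for each tested gene of 12 marker lists, with the number tested in brackets; black bars are list medians. The 7 leukocyte lists, in red, have medians between 0.78 and 2.06, the endothelial list has 0.52 and the basal epithelial list -0.66.

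The genes whose levels across the 4 libraries were most like those of Ptprc were found among 11334 protein-coding genes of at least 5 CPM on average. Likeness was the Euclidean distance between log2 CPM values centred on each gene's mean, and with 4 libraries many genes lie close to any pattern. The nearest was Cd37, a tetraspanin gene of B cells and other leukocytes, at a distance of 0.27. It stood at 7.15 and 3.48 CPM in cKO and WT at 10 days and at 10.9 and 3.31 CPM at 5 weeks. Next came Cd36, the fatty acid transporter gene of adipocytes, endothelium and macrophages (0.31), Cyyr1 (0.35), 9930111J21Rik2 (0.37) and Cxcl9, a chemokine gene induced by interferon gamma (0.40). Among the members in that set Cd79a ranked 30, C1qa 182, Csf1r 249 and Lyz2 388, while Cd68 ranked 5731 and Cd3e 9934. Igkc and Ighm were above the level but were not ranked, since they are annotated as immunoglobulin constant genes and not as protein-coding. Adgre1 was below the level.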

How the data were processed

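The authors deposited estimated counts per gene for the 4 libraries, in 1 table of 54393 identifiers. The submitters' processing notes list Salmon, without a version, and GRCm38. The values are whole numbers and were used as deposited. No source used here gives the annotation or strand setting. All identifiers matched GENCODE M21. The 2 libraries of a genotype were not copies of each other: chi-square over genes, divided by its degrees of freedom, was 92.4 for cKO and 172.5 for WT. Nothing says that they came from separate animals. With 1 library per genotype and time point, the model's residual for a gene is the difference of its genotype ratio between the 2 times. An SE or p-value therefore does not measure spread between repeat libraries. A change of the ratio over time cannot be told apart from variation between animals or libraries.

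A filter on low counts (filterByExpr, minimum count 10) kept 18917 genes. In edgeR 4.0.16, under R 4.3.3, library sizes were adjusted by TMM and a quasi-likelihood model (robust) was fitted to terms for time and genotype, which left 1 residual degree of freedom. Adjusted p-values follow Benjamini and Hochberg across every gene in the fit, with a threshold of 0.05. The time term is the block. SE is the absolute log2 fold change over the square root of F. Log2 ratios within a time point use a prior count of 2 and no test. Intervals cover counting error only. Alternatives were DESeq2 1.42.0, limma-voom (limma 3.58.1), other scalings and filters, no time term and each library left out.

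The members and lists were chosen with earlier results of these data known. The rule for names took the members, their partner genes, and from each list genes passing 0.05 and the 3 most abundant others, with 5 genes most like Ptprc. Further list genes were named after their values were seen. Of the non-leukocyte lists, sums and medians are given in place of most genes. Results for some genes are not reported here.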

Additional observations from a re-analysis of the deposited data

Results flagged for a closer look

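For Cd68 the log2 ratio of cKO over WT had opposite signs at the 2 time points. For Ptprc, Cd79a, Igkc, Adgre1, C1qa and Csf1r the log2 ratio of 5 weeks over 10 days had opposite signs in the 2 genotypes. The share of all genes with such signs was not counted, so they cannot be read as particular to the markers. Each ratio rests on 1 library per genotype and time point, so these differences were not tested. Cd68 had a cKO over WT log2 ratio of -0.27 at 10 days and 0.082 at 5 weeks. Over time Ptprc had 0.70 in cKO and -0.36 in WT, Cd79a had 1.11 in cKO and -0.067 in WT, and Adgre1 had 0.68 in cKO and -0.59 in WT. C1qa had 0.15 in cKO and -0.92 in WT, and Csf1r had 0.14 in cKO and -0.92 in WT. Igkc had the reverse signs, with -0.67 in cKO and 0.46 in WT.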

How the results depend on the processing

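Under the alternatives the count of all genes called for genotype ran from 0 to 1235 beside 11: 512 in DESeq2, 20 in limma-voom, 5 with DESeq2 size factors, 3 with upper-quartile factors, 1235 with no filter on low counts, 20 with a minimum count of 50, 0 with no replicate block, that is, without the time term (with 2182 at an unadjusted p under 0.05), and 0 to 61 without a library (61 without WT at 10 days). For time it was 192 in DESeq2, 37 in limma-voom, 638 with no filter, 21 with a minimum count of 50 and 1 without the genotype term, beside 12. Markers called for genotype were 3 in DESeq2 and 3 with no filter, beside 0, and for time 1 in each, beside 0. The block changed no call among the 10 markers, and leaving out a library called 0 of them. Their median log2 fold change lay between 0.63 and 1.31 without a library. Of single markers, Cd3e ran from -0.46 to 2.19 and Cd68 from -0.33 to 0.14 without a library: Cd3e reversed to -0.24 without WT at 10 days and to -0.46 without cKO at 5 weeks, Cd68 to 0.14 without WT at 10 days, and the time effect of Adgre1 to -0.00049 with library totals only, where it was already near 0. Fits without a library lack the time term, and the lone sample of an arm is assumed to vary like the others. The summed level of the 10 had a log2 ratio of 1.004, and 0.84 without Ighm, Igkc and Lyz2. The cause of these differences was not tested. Low counts limit precision for Adgre1 (52 to 104 per library) and for Cd3e in WT at 10 days (48).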

Other observations

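Transcripts of T cell receptor genes were counted by gene type. The 8 constant genes summed to 16.1 CPM in cKO and 10.9 CPM in WT at 10 days, and to 15.1 CPM in cKO and 7.86 CPM in WT at 5 weeks. Of 129 variable genes, 42 had a count in cKO and 43 in WT at 10 days, and 60 in cKO and 39 in WT at 5 weeks. The counts behind these numbers, on which they depend, were 185 and 114 in cKO and WT at 10 days and 246 and 261 at 5 weeks. The 5 delta variable genes summed to 1.86 and 0.70 CPM in cKO and WT at 10 days and to 2.98 and 2.16 CPM at 5 weeks. The 4 lambda light chain constant genes summed to 1.70 and 2.85 CPM in cKO and WT at 10 days and to 6.07 and 3.44 CPM at 5 weeks, so the order of the genotypes differed between the times, unlike that of Igkc. Within them Iglc1 had a log2 fold change of -1.13 (adjusted p = 0.431 in edgeR), Iglc2 of 0.60 (adjusted p = 0.812) and Iglc3 of 1.51 (adjusted p = 0.504). Hbb-bs, a beta globin gene of red cells, stood at 1.86 and 3.77 CPM in cKO and WT at 10 days and at 31.0 and 8.82 CPM at 5 weeks.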
